A study of Homo sapiens with 6 samples.

Results

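The Polycomb repressive complex genes examined in ZR-75-1 cells were EZH1, EZH2, SUZ12, EED and JARID2 of Polycomb repressive complex 2 (PRC2) and CBX2, CBX7, CBX8 and RNF2 of Polycomb repressive complex 1 (PRC1). They were taken by name as core and CBX/RING subunits, matched through their Ensembl identifiers, and made up 9 of the 60656 genes counted. ZR-75-1 is an oestrogen receptor-positive human breast cancer line. The 6 libraries came from parental cells, which do not carry the RB1 knockout made in other cells of the series, 3 grown for 4 days with 500 nM abemaciclib, an inhibitor of CDK4/6, and 3 grown for 4 days with an equal volume of DMSO as control. Replicates were described by the study as independent biological ones, and all libraries came from 1 cell line in 1 medium. The RB1 knockout cells were not analysed here.

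PRC2 places methyl groups on lysine 27 of histone H3, a mark (H3K27me3) of silenced developmental genes. EZH2 or its paralogue EZH1 is the catalytic subunit, EED binds the existing mark and stimulates the enzyme, SUZ12 is the scaffold that holds the subunits together, and JARID2 is an accessory subunit that guides the complex to chromatin. PRC1 adds ubiquitin to histone H2A through the E3 ligases RNF2 (RING1B) and RING1, and in its canonical form carries a CBX protein whose chromodomain reads H3K27me3. EZH2 is a well known target of E2F factors, which Rb holds in check, and is abundant in dividing breast cancer cells, whereas EZH1 is typically the form of resting and differentiated cells.

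The total count was between 3317860 and 4013156 per library. Levels are given in CPM, the read count scaled to the library's TMM-adjusted size. A count of 0 would allow up to 0.740 to 0.909 CPM, a limit set by 3 counts that covers counting error only. Reads start near the 3′ end of an mRNA in this kit, so long and short transcripts yield like numbers of reads and levels of different genes were compared without division by length. MKI67, the proliferation marker Ki-67, was 0.951% of its DMSO level with abemaciclib. The abemaciclib replicate 3 library stood somewhat apart, with a chi-square per gene of 6.98 and 7.41 against the other abemaciclib libraries, where every other pair of one group lay between 2.83 and 4.21. All 7 luminal markers (ESR1, GATA3, FOXA1, KRT8, KRT18, KRT19 and EPCAM) were detected, with a summed level of 6661 to 7275 CPM with DMSO and 7563 to 8640 CPM with abemaciclib. They did not move together: KRT19 (3131 to 4280 CPM) and ESR1 (210.6 to 373.2 CPM) were called higher, KRT18 (689.4 to 542.7 CPM) was called lower, and the other 4 did not pass. Of 10 markers of leukocytes, fibroblasts, endothelium and basal cells, 7 were at 0 in all 6 libraries, among them PTPRC, PECAM1, KRT5 and KRT14, and the list summed to 19.1 to 29.4 CPM with DMSO and 10.6 to 17.6 CPM with abemaciclib. Of that list, ACTA2, a smooth muscle and myoepithelial actin, had a mean of 9.25 CPM with DMSO and 1.31 CPM with abemaciclib. ACTA2 was called lower by edgeR (log2 fold change −2.82, adjusted P = 0.000191). COL1A1 had means of 13.1 and 12.5 CPM and did not pass. The part of these marker levels in the results below was not tested.

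The promoters of 3 PRC2 core genes are shown because 2 of the genes, EZH2 and EED, fell and the other, SUZ12, did not pass the test. Each window runs from 250 bases before to 50 bases after the annotated start, 5′ to 3′ on the strand of the gene, from RefSeq on GRCh38.p14, and capitals mark a match to the letters of the E2F site.
EZH2 (chr7:148884242-148884541, minus strand): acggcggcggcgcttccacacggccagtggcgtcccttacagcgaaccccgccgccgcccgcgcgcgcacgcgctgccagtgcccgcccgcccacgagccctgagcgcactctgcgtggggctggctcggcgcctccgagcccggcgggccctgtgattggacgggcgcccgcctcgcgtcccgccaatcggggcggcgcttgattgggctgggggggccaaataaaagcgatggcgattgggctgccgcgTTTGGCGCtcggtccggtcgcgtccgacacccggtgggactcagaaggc
SUZ12 (chr17:31936757-31937056, plus strand): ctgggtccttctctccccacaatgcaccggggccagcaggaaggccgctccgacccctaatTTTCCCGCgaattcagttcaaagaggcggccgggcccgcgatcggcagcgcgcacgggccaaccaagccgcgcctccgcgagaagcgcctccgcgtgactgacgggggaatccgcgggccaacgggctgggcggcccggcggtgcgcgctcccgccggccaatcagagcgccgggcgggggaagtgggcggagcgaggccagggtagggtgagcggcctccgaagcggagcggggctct
EED (chr11:86244503-86244802, plus strand): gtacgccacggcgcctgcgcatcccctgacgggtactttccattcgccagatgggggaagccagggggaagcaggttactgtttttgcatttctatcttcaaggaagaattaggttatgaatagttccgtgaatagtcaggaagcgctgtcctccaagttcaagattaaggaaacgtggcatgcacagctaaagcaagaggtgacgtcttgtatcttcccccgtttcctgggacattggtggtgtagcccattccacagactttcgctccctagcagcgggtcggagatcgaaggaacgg

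The letters searched for the E2F site were TTTCCCGC, TTTCGCGC, TTTGCCGC and TTTGGCGC on both strands. They were found in 3.31% of the 35116 RefSeq promoter windows of the same length. RefSeq windows matched 7 of the 9 Polycomb genes, with a pair of windows each for EZH2 and JARID2, and no window was found for CBX2 or CBX8. The letters lay in 3 of the 9 windows of these genes, and so in 3 of the 7 genes. In EZH2 the match was TTTGGCGC, beginning 1 base after the start site. In SUZ12 it was TTTCCCGC, beginning 189 bases before the start, and in EZH1 it was TTTGCCGC on the opposite strand, 115 bases before the start. The window of EED held none of the E2F letters, and neither did those of JARID2, RNF2 and CBX7. CCAAT, the letters of the box bound by NF-Y, occurred 4 times in the EZH2 window shown, once each in those of EED, SUZ12 and CBX7 and in 1 window of JARID2, and in 34.6% of all windows. TTTGAA, the letters of the CHR element of cell cycle promoters, occurred in the SUZ12 window alone among the 7 genes, and in 15.2% of all windows. None of these matches overlapped another. These matches describe letters in the window, and binding was not measured in these libraries. EED has a further GENCODE start upstream of the window shown.

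All 9 Polycomb genes had enough counts to be tested among 10863 genes. With abemaciclib, 3 were lower (EZH2, EED and CBX2) and 0 were higher. A gene was called where the quasi-likelihood P of edgeR, adjusted by Benjamini–Hochberg over the genes tested, was under 0.05. No member was higher at an unadjusted P under 0.05 (0 of 9) or with DESeq2 (0 of 9). Across all genes tested, 13.3% were lower, 12.5% higher and 25.7% either, against 33.3% of the Polycomb genes called. The 9 were chosen with earlier results of these data known, so this difference in share is a description and not independent support. In the same 3 genes every abemaciclib library lay below every DMSO library, and the other 6 overlapped. Separation of this kind was found in 39.1% of all genes tested, with abemaciclib above in 19.1% and below in 20.1%, so the share of members without overlap was close to the background. The median log2 fold change of the 9 genes was −0.14, and −0.0018 over all genes tested. These libraries are of bulk RNA, so fewer cells expressing a gene and less RNA per cell cannot be told apart.

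**Figure D1:**
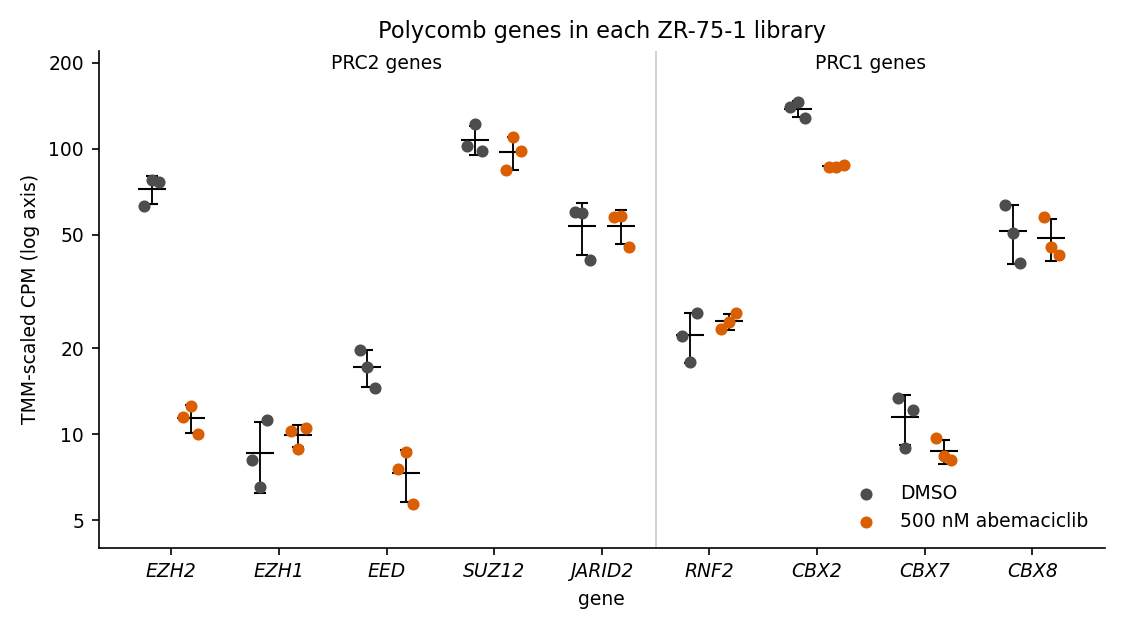
TMM-scaled CPM (log axis) of the 9 Polycomb genes in each ZR-75-1 library, grey for DMSO and orange for 500 nM abemaciclib. Points are libraries, horizontal bars the mean and whiskers the SD (n = 3). EZH2, EED and CBX2 separate the groups, whereas the other 6 genes overlap.

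The catalytic subunit EZH2 (ENSG00000106462, chromosome 7 of GRCh38 from 148807257 to 148884321, minus strand) had the largest change of the 9. Its level was 62.9, 77.5 and 76.3 CPM in the DMSO libraries and 11.5, 12.6 and 10.0 CPM in the abemaciclib libraries, from 217 to 261 and 37 to 51 counts. All treated libraries lay far below the lowest control library. The means were 72.3 ± 8.10 CPM and 11.4 ± 1.30 CPM (SD, n = 3 per group), so that EZH2 fell to 15.7% of the DMSO level, with a log2 fold change of −2.66 (standard error 0.18, 95% interval −3.04 to −2.29, adjusted P = 3.48e-12). Only 1.14% of the genes tested had a lower log2 fold change. Under every alternative run, including the omission of each library in turn, the log2 fold change of EZH2 was between −2.76 and −2.58.

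EZH1 (ENSG00000108799, chromosome 17 from 42700275 to 42745049, minus strand), the other catalytic subunit, was the least abundant of the 9 with DMSO. It had 8.12, 6.54 and 11.2 CPM with DMSO and 10.3, 8.88 and 10.5 CPM with abemaciclib, so the groups overlapped. The log2 fold change was 0.20 (95% interval −0.48 to 0.87, adjusted P = 0.717). It rests on 22 to 39 counts per library, and a change of any size within that interval is compatible with these values. The ratio of EZH1 to EZH2 within a library was 0.129, 0.0843 and 0.147 with DMSO and 0.895, 0.706 and 1.05 with abemaciclib. On the log2 scale the ratio was −3.10 ± 0.42 with DMSO and −0.20 ± 0.29 with abemaciclib (SD, n = 3 in each group). EZH1 thus went from 10.7% ± 2.60 to 46.6% ± 4.99 of the summed EZH1 and EZH2 transcripts (SD, n = 3), while the sum itself was 80.9 ± 8.69 CPM with DMSO and 21.3 ± 0.648 CPM with abemaciclib. The larger share of EZH1 came with a lower EZH2 level and not with a called rise of EZH1. The share and the sum were taken after the values were seen.

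EED (ENSG00000074266, chromosome 11 from 86201212 to 86278813, plus strand), which reads the mark and activates the enzyme, also fell. Its level was 19.7, 17.2 and 14.5 CPM with DMSO and 7.56, 8.64 and 5.67 CPM with abemaciclib, with 48 to 68 and 21 to 35 counts. The highest treated library stayed below the lowest control library. The log2 fold change was −1.23 (standard error 0.29, 95% interval −1.83 to −0.63, adjusted P = 0.00222), which left 42.5% of the DMSO level. It was between −1.37 and −1.07 under the alternatives, with adjusted P of at most 0.0196. One of its exons, not the last, overlaps a gene on the opposite strand.

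SUZ12 (ENSG00000178691, chromosome 17 from 31937007 to 32001038, plus strand), the scaffold, did not pass the test. It had 102.1, 121.8 and 98.1 CPM with DMSO and 84.1, 109.8 and 97.8 CPM with abemaciclib, with overlapping groups. The log2 fold change of −0.14 had a 95% interval of −0.40 to 0.12 (adjusted P = 0.468), an interval that lies wholly above those of EZH2 and EED. Reads of SUZ12 could be shared with the pseudogene SUZ12P1, whose mean count was 28.0 with DMSO and 19.7 with abemaciclib, against 362.0 and 361.7 for the gene, so its value is uncertain to that extent. JARID2 (ENSG00000008083, chromosome 6 from 15246069 to 15522042, plus strand), the accessory subunit, had 60.0, 59.4 and 40.6 CPM with DMSO and 57.5, 58.0 and 45.1 CPM with abemaciclib. In both groups replicate 3 was the lowest library, and the groups overlapped nearly whole. Its log2 fold change was 0.0037 (95% interval −0.33 to 0.34, adjusted P = 0.991).

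Among the PRC1 genes, CBX2 was the member that fell. CBX2 (ENSG00000173894, chromosome 17 from 79778148 to 79787983, plus strand), a chromodomain subunit that also compacts chromatin, was the most abundant of the 9 with DMSO. It had 139.5, 145.6 and 128.4 CPM with DMSO and 86.5, 86.1 and 87.3 CPM with abemaciclib, from 286 to 490 counts. The treated libraries were close to each other and all below the controls. The log2 fold change was −0.67 (standard error 0.11, 95% interval −0.90 to −0.44, adjusted P = 4.42e-05), or 62.9% of the DMSO level, and stayed between −0.72 and −0.63 under the alternatives.

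CBX8 (ENSG00000141570, chromosome 17 from 79792132 to 79801683, minus strand), a paralogue in the same stretch of chromosome 17, had 63.5, 50.8 and 39.7 CPM with DMSO and 57.8, 45.4 and 42.4 CPM with abemaciclib. The spread within each group was wider than the gap between their means, with a log2 fold change of −0.09 (95% interval −0.44 to 0.27, adjusted P = 0.769). Without DMSO replicate 1, the highest library, it was 0.09, and CBX8 did not pass the test in either fit. CBX7 (ENSG00000100307, chromosome 22 from 39120167 to 39152680, minus strand), the CBX protein known for silencing the INK4A locus, had 13.3, 8.91 and 12.1 CPM with DMSO and 9.68, 8.39 and 8.11 CPM with abemaciclib. Its log2 fold change of −0.40 did not pass the test, and with 30 to 46 counts per library its 95% interval ran from −1.03 to 0.24 (adjusted P = 0.392). The last exon of CBX7 overlaps a gene on the opposite strand that had no counts in any library. RNF2 (ENSG00000121481, chromosome 1 from 185045526 to 185102603, plus strand), the ubiquitin ligase, had 22.0, 17.8 and 26.7 CPM with DMSO and 23.3, 24.7 and 26.5 CPM with abemaciclib. The groups overlapped, and the log2 fold change was 0.16 (95% interval −0.27 to 0.60, adjusted P = 0.629).

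**Figure D2:**
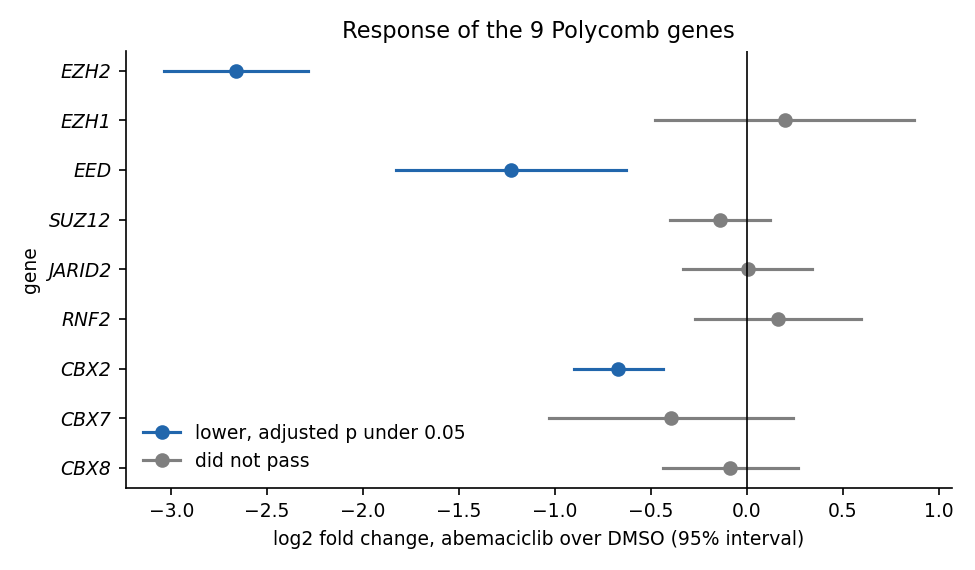
Log2 fold change of abemaciclib over DMSO for the 9 Polycomb genes, with 95% intervals from edgeR. Blue marks an adjusted P under 0.05. EZH2 at −2.66, EED at −1.23 and CBX2 at −0.67 lie left of 0, and the intervals of the other 6 cross 0.

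Ordered by level with DMSO, the genes ran from CBX2 through SUZ12, EZH2, JARID2, CBX8, RNF2, EED and CBX7 to EZH1. Neighbours whose libraries overlapped were JARID2 and CBX8, RNF2 and EED, and CBX7 and EZH1, and the gap between EZH2 and JARID2 was smaller than the sum of their SDs. With abemaciclib the order was SUZ12, CBX2, JARID2, CBX8, RNF2, EZH2, EZH1, CBX7 and EED. EZH2 moved from the third place to the sixth, and EZH2, EZH1, CBX7 and EED then formed a run of low genes in which each overlapped its neighbour, between 5.67 and 12.6 CPM. SUZ12 and CBX2 also overlapped, as did JARID2 and CBX8. Against all genes tested, the DMSO level of CBX2 exceeded that of 88.7%, that of SUZ12 85.3%, that of EZH2 78.1%, that of RNF2 46.5% and that of EZH1 21.7%.

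**Figure D3:**
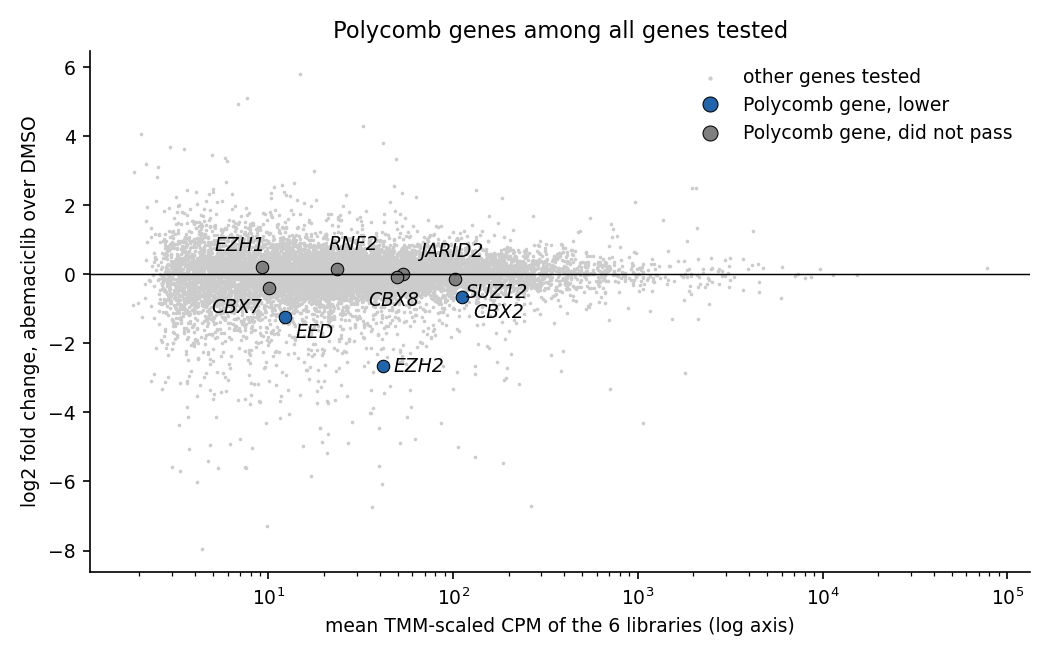
Log2 fold change of abemaciclib over DMSO against the mean TMM-scaled CPM of the 6 libraries (log axis) for all 10863 genes tested, with the 9 Polycomb genes outlined. Blue members passed the test and grey ones did not, and EZH2 at −2.66 lies lowest of the 9.

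The remaining PRC2 genes held a larger change than any of the 9. Of 10 listed, 9 were tested, with 2 lower (PHF19 and RBBP7), 1 higher (MTF2) and 6 that did not pass, and EZHIP was at 0 in all libraries. Of those tested, 33.3% were called, against 25.7% of all genes tested, and the median log2 fold change was −0.18. PHF19, a Polycomb-like protein that brings PRC2 to CpG islands, had 57.7, 55.3 and 48.2 CPM with DMSO and 3.93, 2.22 and 2.16 CPM with abemaciclib, with no overlap. PHF19 fell by 4.28 on the log2 scale (standard error 0.26, adjusted P = 1.81e-13), from between 159 and 199 counts to between 8 and 13. MTF2, its paralogue, had 21.8, 25.5 and 16.7 CPM with DMSO and 30.3, 34.0 and 31.1 CPM with abemaciclib, a log2 fold change of 0.58 (adjusted P = 0.0354). The MTF2 call was lost without DMSO replicate 1 (0.59, adjusted P = 0.0763) or DMSO replicate 3 (0.43, adjusted P = 0.163). It was also lost without abemaciclib replicate 2 (0.53, adjusted P = 0.114) and with DESeq2 (0.58, adjusted P = 0.087). RBBP7, a histone-binding subunit shared with deacetylase complexes, fell by 0.43 (log2, adjusted P = 0.0045), though its 3′ end overlaps TXLNG on the opposite strand and its counts are uncertain. The paralogue RBBP4 did not pass, with a log2 fold change of 0.03. Its last exon overlaps SYNC on the opposite strand, with a mean count of 17.3, so its counts are uncertain too.

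The Polycomb-like proteins PHF1, MTF2 and PHF19 were summed as a family after their values were seen. The same holds for EZH1 with EZH2 and for RING1 with RNF2. The Polycomb-like sum was 78.6 ± 7.75 CPM with DMSO and 37.7 ± 2.99 CPM with abemaciclib (SD, n = 3 in each group). PHF19 was 68.4% ± 1.27 of the sum with DMSO and 7.41% ± 2.83 with abemaciclib (SD, n = 3). MTF2 was 26.0%, 30.9% and 23.9% of the sum in the DMSO libraries and 84.5% ± 3.46 with abemaciclib. The leading member of the family by level was therefore PHF19 in every DMSO library and MTF2 in every abemaciclib library. RING1 and RNF2 summed to 61.3 ± 5.11 CPM with DMSO and 60.6 ± 6.02 CPM with abemaciclib (SD, n = 3 in each group). Their sums and shares overlapped between the groups.

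Of 26 other PRC1 genes listed, 25 were tested. Among these, 2 were higher (CBX6 and FBRS), 3 were lower (AUTS2, BCOR and SCML2) and 20 did not pass. The share called was 20%, against 25.7% of all genes tested, and the median log2 fold change was −0.05. CBX6, another chromodomain subunit, had 256.1, 258.1 and 232.9 CPM with DMSO and 386.9, 340.5 and 346.9 CPM with abemaciclib, a log2 fold change of 0.52 (adjusted P = 0.000158) opposite in sign to that of CBX2. AUTS2, a component of a variant PRC1 linked with gene activation, fell by 1.24 (log2, adjusted P = 0.000187), with 31.9, 23.8 and 40.3 CPM against 12.7, 16.5 and 11.1 CPM. BCOR, the corepressor of the variant complex with PCGF1, was lower by a log2 fold change of −0.48, at an adjusted P of 0.0175. The BCOR call was lost without DMSO replicate 1 (−0.38, adjusted P = 0.119) or abemaciclib replicate 2 (−0.44, adjusted P = 0.0716). FBRS was higher by 0.34 (log2, adjusted P = 0.0282), a call lost in every fit that left out a library except the one without abemaciclib replicate 1, with log2 fold changes of 0.28 to 0.38 where it was lost. SCML2, named after its values were seen because its mean was under 5 CPM, was lower at −1.65 (log2, adjusted P = 0.0476). The SCML2 call did not hold in any fit that left out a library except the one without abemaciclib replicate 2, with values of −1.79 to −1.28 where it was lost, nor with DESeq2 (−1.69, adjusted P = 0.136). Without abemaciclib replicate 2, which held 11 counts of SCML2 against 2 in each of the other abemaciclib libraries, the value was −2.81 (adjusted P = 0.0148). RING1, the paralogue of RNF2, had a log2 fold change of −0.14 and BMI1, a classical PCGF subunit, of −0.20, neither of which passed.

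PR-DUB removes the ubiquitin that PRC1 places on histone H2A, with BAP1 as its deubiquitinase, and most of the listed genes encode cofactors. Of 11 listed, 10 were tested, with 0 higher (0 at an unadjusted P under 0.05 and 0 with DESeq2) and 1 lower, HCFC1. The share called was 10%, against 25.7% of all genes tested, and the median log2 fold change was −0.13. HCFC1, at −0.29 (log2, adjusted P = 0.0438), was a call lost without DMSO replicate 1 (−0.29, adjusted P = 0.111), DMSO replicate 2 (−0.25, adjusted P = 0.191), abemaciclib replicate 1 (−0.23, adjusted P = 0.156) or abemaciclib replicate 2 (−0.30, adjusted P = 0.0933), and with DESeq2 (−0.28, adjusted P = 0.069). The H3K27 demethylases KDM6A and KDM6B had log2 fold changes of 0.02 (95% interval −0.65 to 0.70) and 0.17 (95% interval −0.29 to 0.62), and 0 of the 2 passed the edgeR test (0 at an unadjusted P under 0.05 and 0 with DESeq2). Both directions turned on 1 library, with KDM6A at −0.32 without abemaciclib replicate 3 and KDM6B at −0.24 without abemaciclib replicate 2.

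The HP1 genes CBX1, CBX3 and CBX5 carry a chromodomain too, but read methylated lysine 9 of histone H3 in heterochromatin and are not Polycomb subunits. CBX5 had 300.5, 267.3 and 246.6 CPM with DMSO and 176.7, 184.5 and 211.8 CPM with abemaciclib, a log2 fold change of −0.51 (adjusted P = 0.00058). CBX1 was lower by −0.40 (log2, adjusted P = 0.00725), a call lost when DMSO replicate 2 (−0.37, adjusted P = 0.055) or abemaciclib replicate 2 (−0.31, adjusted P = 0.0781) was left out. CBX3, with 1667 CPM the most abundant of the 3 with DMSO, had −0.20 (adjusted P = 0.0923). Thus 2 of 3 were lower and 0 were higher (0 at an unadjusted P under 0.05 and 0 with DESeq2). This share of 66.7% called rests on 3 genes, against 25.7% of all genes tested.

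**Figure D4:**
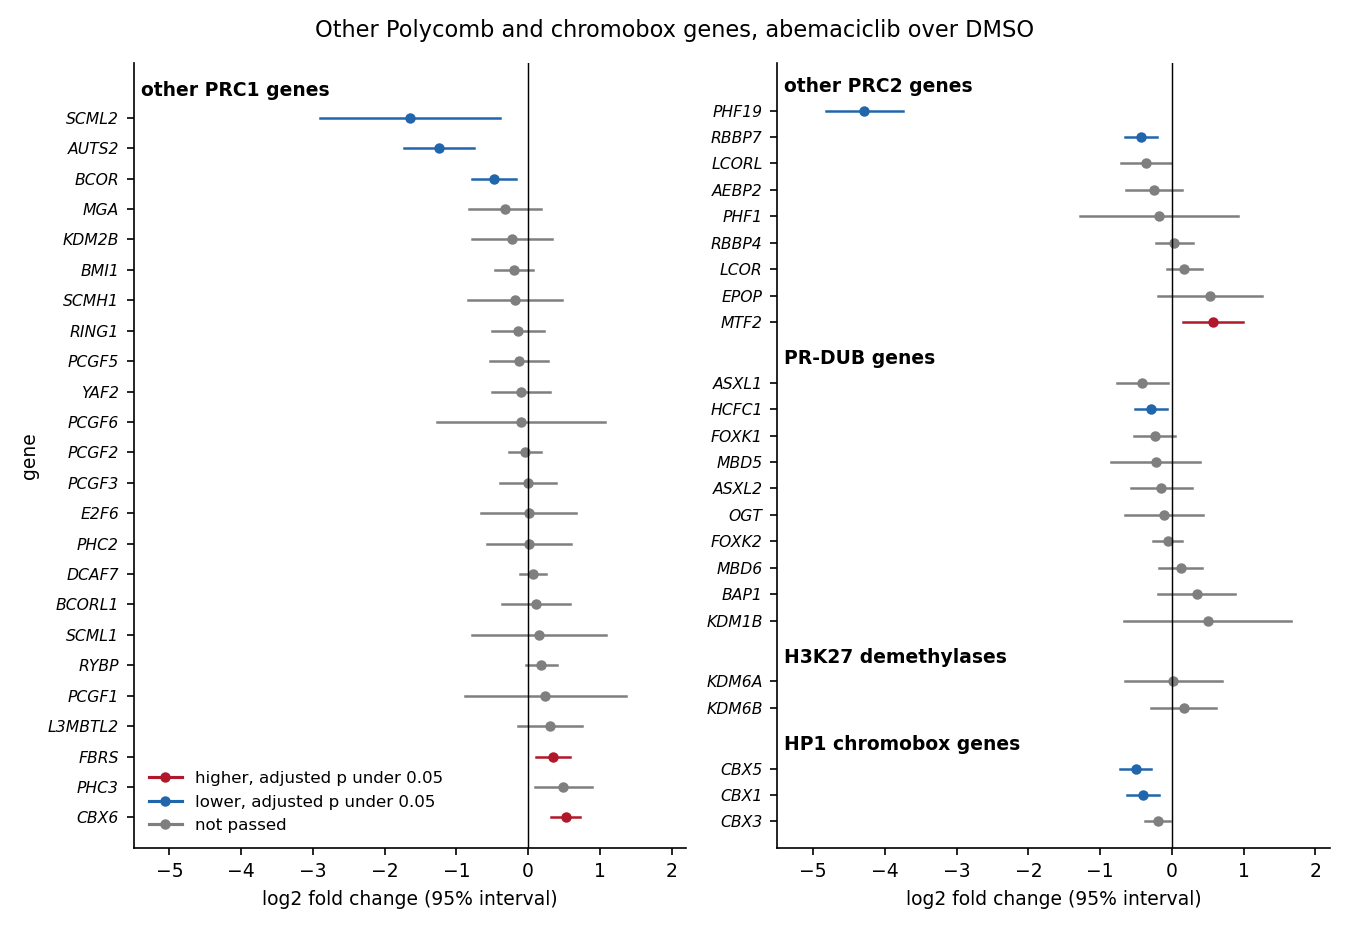
Log2 fold change of abemaciclib over DMSO with 95% intervals for tested genes of the other Polycomb (1 PRC1 gene is not drawn), PR-DUB, H3K27 demethylase and HP1 lists. Red marks genes higher and blue genes lower at an adjusted P under 0.05, and PHF19 at −4.28 lies farthest from 0.

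HOX genes, developmental regulators that Polycomb complexes silence in many cell types, were mostly too low to test. Of 39, only 9 passed the filter on low counts and 15 were at 0 in all 6 libraries, so the tested genes do not stand for the list. With abemaciclib 0 were higher (0 at an unadjusted P under 0.05 and 0 with DESeq2) and 1, HOXA5, was lower. Of the 9, 11.1% were thus called, against 25.7% of all genes tested, and their median log2 fold change was −0.35. HOXA5, named after its values were seen, had 38, 14 and 16 counts with DMSO and 8, 4 and 6 counts with abemaciclib, with no overlap in CPM. Its log2 fold change was −2.00 (adjusted P = 0.00735), and without DMSO replicate 1, the highest library, −1.43 (adjusted P = 0.133). HOXC10, the most abundant HOX gene and also named after its values were seen, was at 59.0 ± 10.6 CPM with DMSO and 71.2 ± 4.93 CPM with abemaciclib (SD, n = 3 per group). The groups overlapped, and the log2 fold change was 0.27 (adjusted P = 0.178).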

How the data were processed

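RNA was measured by 3′ mRNA sequencing in 6 libraries of parental ZR-75-1 cells. Per the study's methods, the authors used BBDuk for trimming, STAR 2.7.5b for alignment to hg38, and featureCounts 2.0.1 with a GENCODE annotation for counting, and the deposited values are raw counts with no filter. Whether the counting used strand is not given in the sources used here. Symbols were matched by Ensembl identifier for 60401 of the genes. Coordinates are from GENCODE on GRCh38, a later release on the same assembly.

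The deposited counts were tested with edgeR 4.0.16 under R 4.3.3, after filterByExpr and TMM scaling, by glmQLFit and glmQLFTest, with Benjamini–Hochberg adjustment over the 10863 genes tested and a threshold of 0.05. A standard error is the log2 fold change divided by the square root of F, and 95% intervals use the t quantile of the fit. CPM are TMM-scaled. No set tests were run. Genes named outside the 9 were, per list, the 4 called genes of largest change whose mean over the libraries reached 5 CPM, and all genes of lists of 3 or fewer, and RBBP4, RING1, BMI1, PHF1, SCML2, HOXA5 and HOXC10 were named after their values were seen. Members and lists were chosen with earlier results of these data known. On simulated counts, the abemaciclib comparison recovered 91.8% of the changed genes tested (97.5% at a fold of 0.25, 89.3% at 0.5, 82% at 2 and 100% at 4) and called 9 unchanged genes of 10839 tested. Alternatives were DESeq2 1.42.0, other scalings and filters, a replicate block and leaving out each library. One gene of the other PRC1 list is counted in it but not reported here by name. Protein sequences were not used here.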

Additional observations from a re-analysis of the deposited data

How the results depend on the processing

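EZH2, EED and CBX2 remained lower in each of the 12 alternatives, and the count of the 9 Polycomb genes was 3 lower and 0 higher in all of them. Of 108 values of single members under an alternative, 107 kept their side of the threshold with no move past their error, and CBX8 without DMSO replicate 1 went from −0.09 to 0.09. The counts over all genes, 1354 higher and 1442 lower, were 1069 and 1165 with DESeq2. Of 192 counts under an alternative, 172 equalled the reported one or stayed within 1.5 times of it. These include counts of 0 that stayed at 0, such as that of Polycomb genes higher, where the factor has no meaning. The other PRC2 list lost its higher gene with DESeq2 (0) and had 1 lower with at least 10 counts in every library, since PHF19 then drops out. HOX genes had 0 lower with that filter, which removes HOXA5. PR-DUB had 0 lower with DESeq2, 0 with no filter and 0 with the replicate block. Leaving out 1 library at a time gave 0 to 1 higher in the other PRC2 list, 1 to 2 higher and 1 to 2 lower in the other PRC1 list, 0 to 1 lower in PR-DUB, 1 to 3 lower in HP1 and 0 to 1 lower in HOX. The cause of these losses was not tested.

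Replicate numbers did not pair the samples: deviations of same-numbered libraries from their group means correlated at −0.04, 0.01 and −0.09 across genes. With the replicate block, 1139 genes were higher and 1280 lower, the Polycomb genes were 3 lower and 0 higher, and the other PRC1 list had 1 higher and 2 lower, the calls of FBRS (0.34, adjusted P = 0.0579) and SCML2 (−1.81, adjusted P = 0.0515) being lost. Depth limits EZH1, CBX7 and EED, which had 21 to 68 counts per library.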
